A study of Homo sapiens with 4 samples.

Results

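The RNAs of 9 core genes of the PI3K, AKT and mTOR pathway were examined for binding by NSUN2, namely PIK3CA, PIK3R1, AKT1, AKT2, TSC1, TSC2, MTOR, RPTOR and RICTOR. The members were matched by gene symbol in the deposited peak lists, and 9 of 9 had at least 1 peak, among 15016 gene symbols with a peak in either list. They held 53 of the 48104 peaks called with lactate and 95 of the 95785 peaks called with ddH2O, which gave 120 of the 116484 merged peaks. The data come from an RNA immunoprecipitation sequencing (RIP-seq) experiment, in which RNA pulled down with an antibody against NSUN2 (the IP) is sequenced beside RNA taken before the pull-down (the input). The cells were wild-type PANC-1, an established line from a human pancreatic ductal adenocarcinoma, given 30 mM sodium lactate or ddH2O for 24 h. There were 4 libraries, with 1 IP and 1 input per condition, so no value has a replicate error, the lactate and ddH2O cultures cannot be told apart from the libraries that stand for them, and no test between conditions was made. The question was which RNAs NSUN2 binds with and without added lactate.

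NSUN2 is an RNA methyltransferase that places 5-methylcytosine (m5C) on tRNAs and mRNAs. In the PI3K pathway, receptor signals activate a lipid kinase made of a catalytic and a regulatory subunit, and its lipid product recruits the AKT kinases to the membrane. AKT phosphorylates and inactivates the complex of TSC1 and TSC2, which otherwise holds back mTOR complex 1, the growth-promoting complex that contains the mTOR kinase and raptor. The same kinase together with rictor forms mTOR complex 2, which in turn phosphorylates AKT. The pathway is often activated in epithelial tumours, including those of the pancreas.

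The peaks were called by the authors in each IP against its own input, and each has a fold over input. The authors then counted the reads of both IPs in a window of 2000 bases at each merged peak and rescaled them with MAnorm, which sets peaks found in both lists to no change on average. Whole reads were recovered from these densities for 99.998% of the windows within a tolerance of 0.05 reads. Outside the windows of the very abundant MT-RNR2 and MALAT1 RNAs the lactate IP had 1945000 reads in all and the ddH2O IP 3536821, a 1.82-fold difference. A second scaling by these sums is therefore given beside the MAnorm one, since it lay a median of 0.81 log2 units higher over all merged peaks. The sums hold reads under called peaks only, so a difference in depth and a general difference in binding cannot be told apart in them. Of the markers of PANC-1, KRT8 had 1614 summed reads with lactate and 4039 with ddH2O, KRT18 had 2737 and 8085, KRT7 had 16 and 37, KRT19 had 92 and 248 and VIM had 615 and 1486, while EPCAM had 1 and 3. Of the markers of other cells, the acinar PRSS1, CPA1 and CELA3A, the islet INS and GCG, the T cell CD3E and the fibroblast DCN had no merged peak, the leukocyte PTPRC had 0 and 3 reads, and the fibroblast collagen COL1A1 had 47 and 50.

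The 9 genes differed widely in how many peaks they carried and where. RPTOR had the most, with 13 peaks called with lactate and 28 with ddH2O, followed by PIK3CA with 8 and 14, AKT2 with 11 and 11, MTOR with 4 and 14, TSC1 with 4 and 12 and RICTOR with 8 and 8. PIK3R1 had 1 and 5 peaks, TSC2 had 3 and 2, and AKT1 had 1 in each list. PIK3CA, PIK3R1, TSC1, MTOR and RPTOR thus had more peaks with ddH2O, whose list was the longer one, and TSC2 alone had fewer. When the ddH2O list was shortened to the 48104 peaks of highest score, 47 of its peaks lay on the core genes beside 53 with lactate.

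**Figure D1:**
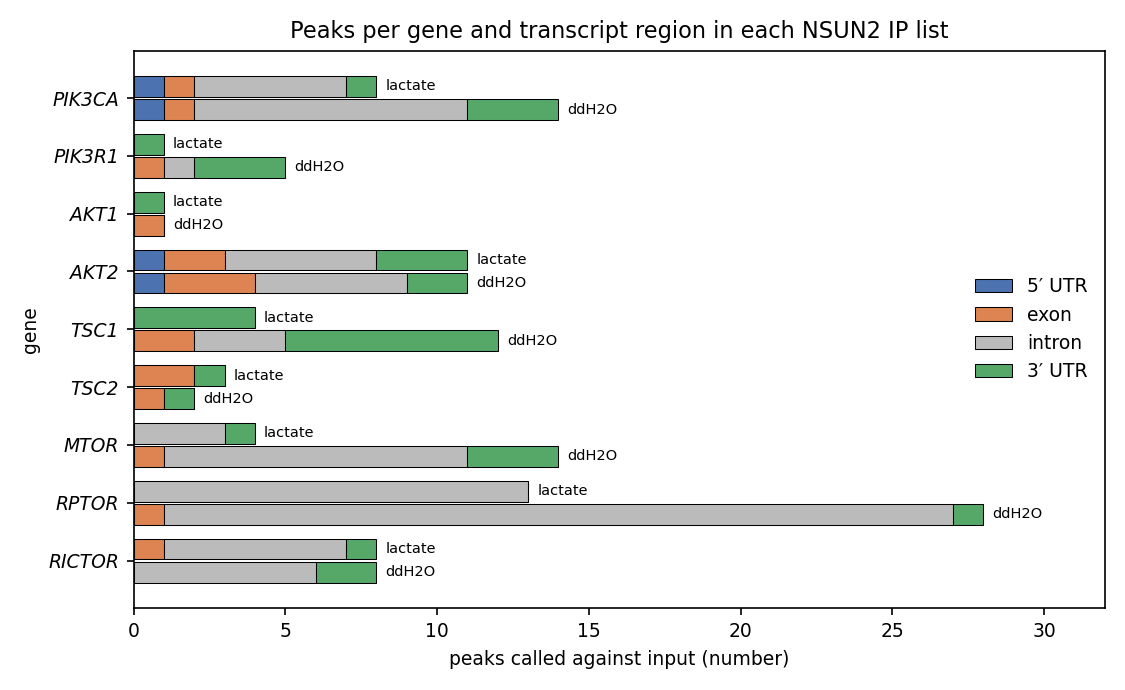
Number of peaks called against input (horizontal axis) on each core gene (vertical axis), with the upper bar for the lactate IP list and the lower bar for the ddH2O IP list, divided by the annotated transcript region. RPTOR is almost wholly intronic, AKT1 has 1 peak in each list, and TSC1 has mostly 3′ UTR peaks.

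Introns held 60.4% of the core peaks with lactate (32 of 53, 95% Wilson interval 46.9 to 72.4%) and 63.2% with ddH2O (60 of 95, 53.1 to 72.2%). Over all peaks on protein-coding genes the shares were 61.5% and 61.2%, which lie inside these counting intervals. The 3′ UTR held 24.5% with lactate (13 peaks, 14.9 to 37.6%) and 23.2% with ddH2O (22 peaks, 15.82 to 32.6%), beside 18.1% and 15.78% over protein-coding genes. Exons held 11.3% (6 peaks, 5.29 to 22.6%) and 11.6% (11 peaks, 6.59 to 19.6%), beside 18.8% and 21.0%. With ddH2O the share over protein-coding genes thus lay outside the core interval for exons and just outside it for the 3′ UTR. The intervals count peaks as independent, though many lie on the same gene. TSC1 held 7 of the 22 3′ UTR peaks with ddH2O and 4 of the 13 with lactate. Without RPTOR, exons held 14.9% with ddH2O (8.31 to 25.3%), an interval that includes 21.0%. The 3′ UTR then held 32.5% with lactate (20.1 to 48.0%) and 31.3% with ddH2O (21.5 to 43.2%), above the shares over protein-coding genes. RPTOR set much of the intron share, as all 13 of its lactate peaks and 26 of its 28 ddH2O peaks were intronic. Without it, introns held 47.5% (19 of 40, 32.9 to 62.5%) and 50.7% (34 of 67, 39.1 to 62.3%) of the core peaks. Both intervals include the shares over protein-coding genes. The annotation labels a region by any transcript of the gene, and of the 28 merged peaks labelled 3′ UTR, 15 lay within 5 kb of the 3′ end of the RefSeq span and 13 lay farther inside.

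By reads the order of the regions was another. Few reads lay under most windows, with a median of 5 with lactate and 6 with ddH2O, and 31 of the 120 windows held at least 20 reads in both IPs together. Of the reads under core windows that share no base, 57.6% with lactate and 60.1% with ddH2O lay at 3′ UTR peaks and 25.5% and 25.4% at intron peaks. Counting all windows, the 3′ UTR share was 62.7% and 66.9% for the core genes and 46.2% and 44.5% without AKT2, beside 39.9% and 40.9% over protein-coding genes. In both IPs the densest window was a 3′ UTR window in 6 of the 9 genes, the exceptions being TSC2, RPTOR and RICTOR. Of 9433 protein-coding genes with at least 2 merged peaks, 42.9% had their densest window in the 3′ UTR with lactate and 44.7% with ddH2O.

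The core peaks were shared between conditions about as often as others. Of the lactate peaks, 28 of 53 (52.8%, interval 39.7 to 65.6%) shared at least 1 base with a ddH2O peak, and of the ddH2O peaks 27 of 95 (28.4%, 20.3 to 38.2%) shared one with a lactate peak. Over protein-coding genes the shares were 58.5% and 29.9%. AKT2 had the most shared peaks, with 8 of 11 lactate peaks and 7 of 11 ddH2O peaks, whereas MTOR shared 1 of 4 and 1 of 14, and AKT1 shared none because its lactate peak lay in the 3′ UTR and its ddH2O peak in an exon.

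Between the IPs, a merged peak was called when its fold exceeded 2 and the 95% counting interval of the ratio left out no change. The interval covers the counting error of 2 libraries and not the spread between cultures. With MAnorm densities, lactate gave the higher value at 8 of the 120 core merged peaks (6.67%) and the lower one at 17 (14.2%), beside 5.61% higher and 15.9% lower over all merged peaks. With library sums 22 were higher (18.3%) and 3 were lower (2.50%), beside 13.8% and 4.84%. The scaling thus turned the split, as 8 of 25 called core peaks (32.0%) were higher with MAnorm and 22 of 25 (88.0%) with library sums, and over all merged peaks 26.1% and 74.1%. The 8 higher and 3 of the 17 lower calls were made under both scalings, and no peak was called in opposite directions. Both scalings use the same reads, and library sums raised the ratio of each of these 8. A higher call with MAnorm thus had to hold with library sums, so being called higher under both is no further support. A peak called in a single list enters through the IP in which it is high, so its direction is largely set by that choice. With MAnorm 7 of the 8 higher peaks were in the lactate list alone and 16 of the 17 lower ones in the ddH2O list alone, and with library sums 16 of 22 and 3 of 3. Among the 27 core merged peaks found in both lists, 1 was higher (3.70%) and 1 lower (3.70%) with MAnorm, beside 5.17% and 6.52% over protein-coding genes, and 6 were higher (22.2%) and 0 lower with library sums, beside 14.8% and 1.99%. The former 2 were an AKT2 intron and a PIK3CA intron. Of the 8 peaks higher with MAnorm, 6 had a q-value below 0.05 against their input in the lactate list, and of the 17 lower, 11 had one in the ddH2O list. The median log2 ratio of the core peaks was -0.43 with MAnorm and 0.27 with library sums, beside -0.50 and 0.07 over all merged peaks. When windows without reads in an IP were set at 3 reads, the core values were -0.20 and 0.49. No median over all merged peaks was computed with that setting. The core shares lay near those over all merged peaks under each scaling, so the counts of calls are no result about these genes in particular.

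**Figure D2:**
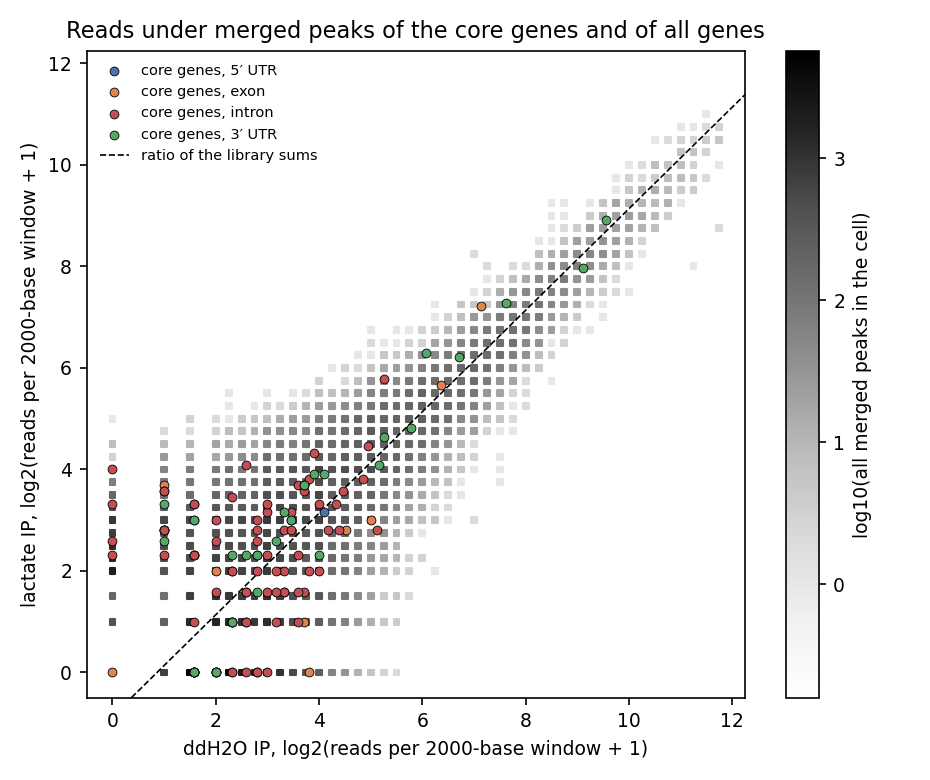
Reads per window in the ddH2O IP (horizontal axis) and the lactate IP (vertical axis), both as log2(reads + 1), for the 120 core merged peaks (coloured by region) over all merged peaks (grey cells, darker for more peaks). The dashed line is the ratio of the library sums, and most core windows lie in the lower left with few reads while the AKT2 3′ UTR windows lie at the upper right.

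**Figure D3:**
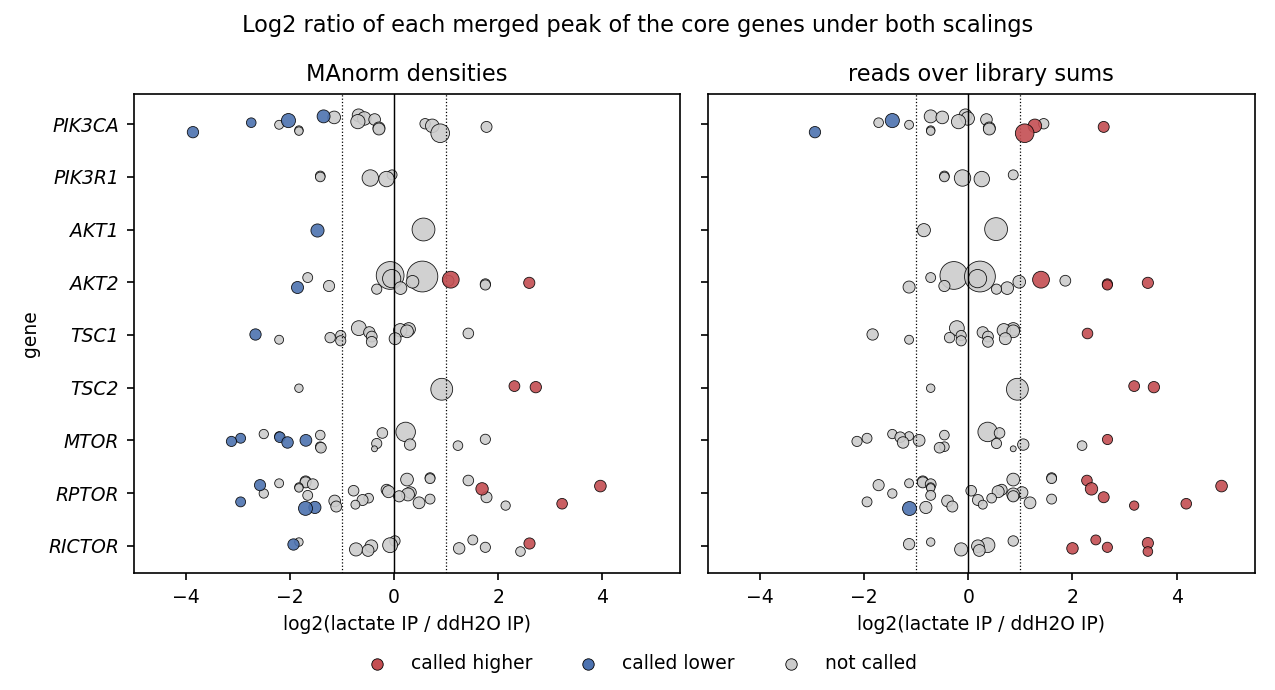
Log2 ratio of lactate over ddH2O (horizontal axis) for each merged peak of each core gene (vertical axis), with MAnorm densities on the left and library sums on the right. Red points were called higher and blue points lower, dotted lines mark a 2-fold difference, larger points hold more reads, and the values of windows with 0 reads in an IP rest on the 1 read added to each window. Most points shift to the right with library sums, from 8 higher and 17 lower to 22 higher and 3 lower, while the dense AKT1 and AKT2 3′ UTR windows shift to the left.

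Among the PI3K subunits, PIK3CA (ENSG00000121879, chr3:179148126-179240093, + strand) encodes the catalytic subunit p110α, the most often mutated lipid kinase in epithelial tumours. Its highest folds over input were in introns, at 9.96 with lactate (chr3:179194645-179195001) and 10.2 with ddH2O (chr3:179177651-179178081). The densest window was at the 3′ UTR peak chr3:179235818-179236017, 4.17 kb from the 3′ end, with 77 reads with lactate and 66 with ddH2O. More reads were therefore found with lactate although that IP had the smaller sum. The peak was in the lactate list alone, however, at a fold of 3.01 over input and a q-value of 0.098. Its direction was thus largely set by where the peak was called. The ratio of lactate over ddH2O was 1.85 (95% counting interval 1.32 to 2.62) with MAnorm and 2.12 (1.51 to 2.99) with library sums, so it was called under the second scaling alone. The intron window of the highest lactate fold had 19 and 14 reads, a ratio of 2.42 (1.17 to 5.32) with library sums, and an exon peak at chr3:179197917-179198202 had 9 and 2, both called under that scaling alone. The exon peak was in the lactate list alone as well.

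Toward the other end, the intron peak chr3:179170912-179171575 had 6 reads with lactate and 34 with ddH2O, and was lower under both scalings, with ratios of 0.246 (0.0744 to 0.522) and 0.364 (0.110 to 0.773). The exon peak chr3:179229183-179229544 had 0 and 13 reads, which put lactate at least 4.49-fold lower with MAnorm and at least 2.38-fold lower with library sums, where 0 reads were set at 3 per library. A further pair of intron windows, with 6 and 20 reads (chr3:179152638-179152957) and with 0 and 5 (chr3:179180316-179180515), were lower with MAnorm alone. Parts of PIK3CA have a near-identical pseudogene copy, and how reads with several matches were treated is not given in the sources used here.

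PIK3CA was also the only core gene with a 5′ UTR peak shared by both lists, and that peak fell on its promoter window in the RefSeq table for GRCh38.p14, which holds 250 bases before and 50 after a gene's start. The peak had a fold of 2.42 with lactate and 9.35 with ddH2O, while its window held 8 and 16 reads, a ratio of 0.963 (0.337 to 2.25) with library sums. Of 15 promoter windows of the 9 genes, the only other one that met a peak was of AKT2, where the ddH2O exon peak chr19:40265220-40265504 with a fold of 3.64 lay on a window of an internal start. The letters CNGGG, a short motif described around m5C sites of NSUN2, were searched on both strands with overlaps allowed. They were found 6 times on the sense strand and 0 times on the antisense strand of the 275 bases that the ddH2O peak of PIK3CA shared with the window, and 1 and 4 times in the 203 shared bases of AKT2. In all 35116 promoter windows of 300 bases, 83.2% held the motif on the sense strand and 93.0% on either strand, with a median of 3 sense matches, and the PIK3CA window had 60.7% G or C beside a median of 58.7%. The stretch with the sense match nearest the peak summit is shown for each gene, 5′ to 3′ on the gene's own strand, with the match in capitals, as these are the bases under a peak for which a sequence was at hand.
PIK3CA, chr3:179148263-179148292, + strand: aggaaaaaaaaaCAGGGgcgacggagaaag
AKT2, chr19:40265395-40265424, - strand: gcccggcgtcctCAGGGaaggggctggtgt
Both stretches carry the same 5 letters, which is a match of letters and not a methylated site, and neither peak was read at base resolution.

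PIK3R1 (ENSG00000145675, chr5:68215756-68301821, + strand) encodes p85α, the regulatory subunit that stabilises p110α. Its reads lay at the 3′ end, where the window of chr5:68297670-68298821 held 27 reads with lactate and 54 with ddH2O, and the neighbouring one of chr5:68298992-68299358 held 24 and 37. The former was the site of its highest ddH2O fold, 8.39, and the latter of its highest lactate fold, 6.01. The ratios of 0.926 (0.551 to 1.47) and 1.20 (0.675 to 2.02) with library sums included no change. These windows overlap and share part of their reads, so the ratios were not independent. No PIK3R1 window was called under either scaling.

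The AKT kinases differed in depth and in spread of peaks. AKT2 (ENSG00000105221, chr19:40230317-40285345, - strand), the isoform best known for insulin-stimulated glucose uptake, had the densest windows of all core genes. The 3′ UTR window of chr19:40232217-40232632 held 483 reads with lactate and 753 with ddH2O, and that of chr19:40230338-40231613 held 249 and 550. Both peaks were in both lists, with folds of 2.88 and 4.98 for the former and 5.59 and 5.23 for the latter. The MAnorm ratios were 1.46 (1.30 to 1.64) and 0.951 (0.813 to 1.10), and those with library sums 1.17 (1.04 to 1.31) and 0.825 (0.706 to 0.958), and neither passed 2-fold. These 2 windows overlap and share part of their reads. The highest ddH2O fold of the gene was 11.9 in an exon (chr19:40240794-40241965), where the window held 50 and 81 reads and the ratio with library sums was 1.13 (0.773 to 1.62).

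An AKT2 intron peak at chr19:40246063-40246687 was called higher under both scalings, with more reads than the other core windows so called. It had 54 reads with lactate and 37 with ddH2O, giving ratios of 2.13 (1.39 to 3.36) with MAnorm and 2.63 (1.71 to 4.15) with library sums. It was also the site of the gene's highest lactate fold, 7.68, beside 4.72 with ddH2O. A smaller intron peak at chr19:40262028-40262255 with 11 and 1 reads was higher under both, at 6.06 (1.61 to 478) and 10.9 (2.91 to 861), intervals so wide that the size was poorly determined. An intron window with 3 and 15 reads (chr19:40271702-40271963) was lower with MAnorm alone, and 2 windows near the internal start (chr19:40265052-40265504 and chr19:40265888-40266087), each with 6 and 1 reads, were higher with library sums alone, but they overlap and count largely the same reads.

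AKT1 (ENSG00000142208, chr14:104769349-104795748, - strand), the isoform best known for cell growth and survival, had 1 merged peak per condition. The 3′ UTR window of chr14:104769397-104769596, 0.148 kb from the end of the gene, held 155 reads with lactate and 195 with ddH2O, although a peak was called with lactate alone and at a fold of only 1.85. Its ratio was 1.47 (1.18 to 1.82) with MAnorm and 1.45 (1.16 to 1.79) with library sums, under 2-fold in both. The window also reached the non-coding LOC102723342, and the library kit named in the labels is not one that marks the strand. The exon window of chr14:104771136-104771342 held 6 and 22 reads and was lower with MAnorm, at 0.361 (0.107 to 0.822), but not with library sums, at 0.553 (0.165 to 1.26).

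Of the TSC complex, which holds back mTOR complex 1, TSC1 (hamartin, ENSG00000165699, chr9:132891349-132945378, - strand) carried 9 merged peaks labelled 3′ UTR among its 14, of which 5 lay within 5 kb of the gene's end. Its densest window, at chr9:132891375-132891687, had 16 reads with lactate and 35 with ddH2O, a ratio of 0.859 (0.430 to 1.54) with library sums. The 3 next windows along the 3′ UTR held 14 and 14, 14 and 16, and 12 and 12 reads, and overlap each other. Their ratios were 1.82, 1.60 and 1.82 with library sums and count largely the same reads, and each interval included no change. The exon window of chr9:132898946-132899145 with 1 and 12 reads was lower with MAnorm, at 0.156 (0.00198 to 0.572), and a 3′ UTR window with 7 and 2 reads (chr9:132897313-132897652) was higher with library sums, at 4.85 (1.21 to 62.8). The highest folds over input were 5.99 with lactate in the 3′ UTR and 6.07 with ddH2O in an exon (chr9:132900587-132900918).

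TSC2 (tuberin, ENSG00000103197, chr16:2047985-2089491, + strand), the GTPase-activating subunit of the complex, had the strongest enrichment of the 9 genes with lactate. Its peak at the last part of the gene, chr16:2088491-2089285 with lactate and chr16:2088047-2089362 with ddH2O, was annotated as exon and had folds of 12.1 and 9.15. The window held 148 reads with lactate and 140 with ddH2O, giving ratios of 1.89 (1.49 to 2.40) with MAnorm and 1.92 (1.52 to 2.44) with library sums, just under the 2-fold limit in both. The peak overlapped the end of PKD1 (chr16:2088708-2135898), which encodes polycystin and lies on the - strand, so without strand the reads of the 2 genes cannot be told apart. A pair of smaller TSC2 peaks inside the gene, away from PKD1 and in the lactate list alone, were called higher under both scalings. The 3′ UTR-labelled peak chr16:2064843-2065042, with a fold over input of 3.17 at a q-value of 0.71, had 9 and 1 reads, at 4.97 (1.24 to 392) with MAnorm and 9.09 (2.27 to 717) with library sums, and the exon peak chr16:2075216-2075519 had 12 and 1, at 6.61 (1.80 to 521) and 11.8 (3.23 to 933). No TSC2 window was called lower under either scaling, and the remaining one had 0 and 2 reads.

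MTOR (ENSG00000198793, chr1:11106535-11262551, - strand) encodes the kinase of both mTOR complexes. Its 3′ UTR window at chr1:11106471-11107176 held 73 reads with lactate and 103 with ddH2O, with folds of 7.22 and 5.76 and a ratio of 1.29 (0.942 to 1.76) with library sums, within counting error of no change. It was the only one of the 17 MTOR merged peaks found in both lists, as 13 were called with ddH2O alone and 3 with lactate alone. Introns held 13 merged peaks, spread from 10.7 to 144 kb from the 5′ end with a median of 7 reads in both IPs together and at most 16. Of these 5 were lower with MAnorm, at 1 and 8 reads (chr1:11136366-11136799), 0 and 6 (chr1:11155932-11156131), 3 and 13 (chr1:11169720-11170186), 0 and 7 (chr1:11176160-11176488) and 2 and 12 (chr1:11183253-11183633). The window with 3 and 13 reads held the highest ddH2O fold of the gene, 6.67, at a ratio of 0.310 (0.0457 to 0.911), and reached a small nucleolar RNA gene, LOC124904848. None of the 5 was called with library sums, where 1 intron window with 6 and 1 reads (chr1:11168263-11168462) was higher instead.

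RPTOR (ENSG00000141564, chr17:80544838-80966368, + strand) encodes raptor, which presents substrates to mTOR complex 1. It had 34 merged peaks, 32 of them in introns between 6.14 and 411 kb from the 5′ end, and introns held 95.1% of its summed reads with lactate and 82.6% with ddH2O. It was the only core gene whose densest window differed between the IPs. With lactate this was the intron peak chr17:80674484-80674716, with 16 reads beside 5 with ddH2O, a fold of 8.41 over input and ratios of 3.23 (1.28 to 12.7) with MAnorm and 5.15 (2.04 to 20.3) with library sums. With ddH2O it was the last exon, chr17:80966036-80966474, with 7 reads with lactate and 31 with ddH2O, a fold of 7.59 over input and ratios of 0.308 (0.103 to 0.644) and 0.455 (0.153 to 0.950). Both were called under both scalings, in opposite directions.

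Other RPTOR introns followed either pattern. The peak chr17:80651604-80652098 had 15 reads with lactate and 0 with ddH2O, at least 4.88-fold higher with MAnorm and at least 9.09-fold higher with library sums, and chr17:80934736-80935013 had 9 and 0, at least 2.81-fold and 5.46-fold higher. Lower with MAnorm alone were the introns chr17:80616797-80617203 with 1 and 11 reads and chr17:80882179-80882445 with 0 and 6, and the 3′ UTR window chr17:80965158-80965357 with 4 and 15, which shares bases with the window of the last exon. Higher with library sums alone were introns with 7 and 2 reads (chr17:80566572-80566778), 9 and 2 (chr17:80793918-80794190) and 4 and 0 (chr17:80954731-80954930). The last exon and the 3′ UTR window reached LOC400627, a non-coding gene on the - strand, and the intron with 7 and 2 reads reached LOC105371922. The last exon, lower under both scalings, had its peak in the ddH2O list alone, and the 3 introns higher under both had theirs in the lactate list alone, so these directions were largely set by where the peaks were called.

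RICTOR (ENSG00000164327, chr5:38937920-39074399, - strand) encodes the defining subunit of mTOR complex 2. It was the only core gene with no merged peak within 5 kb of the 3′ end of its span, and introns held 75.6% of its summed reads with lactate and 90.9% with ddH2O. The densest window in both IPs was the intron peak chr5:38987198-38987809, with 21 reads with lactate and 30 with ddH2O, folds of 2.21 and 8.80 and a ratio of 1.29 (0.693 to 2.30) with library sums. Its highest folds were 4.03 with lactate and 9.10 with ddH2O, in an intron near the 5′ end (chr5:39067518-39067916) whose window held 9 and 19 reads at a ratio of 0.909 with library sums, whose interval included no change. The exon peak chr5:38971649-38971848, with a fold over input of 2.68 at a q-value of 0.57 and with 11 and 1 reads, was higher under both scalings, at 6.06 (1.61 to 478) and 10.9 (2.91 to 861), and the intron peak chr5:38985358-38985557 with 2 and 11 was lower with MAnorm alone. Library sums alone added 4 higher windows, with 5 and 1 reads (chr5:38947261-38947460), 6 and 1 (chr5:39031474-39031731), 10 and 4 (chr5:39050395-39050833) and 5 and 0 (chr5:39072031-39072230).

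Reads were then summed per gene over windows that share no base, 96 of the 120, and scaled by the library sums, here with no read added. TSC2 had 169 reads with lactate and 144 with ddH2O and the highest ratio, at a log2 value of 1.09 (95% counting interval 0.76 to 1.42). RICTOR followed with 82 and 88 reads and 0.76 (0.31 to 1.21), then RPTOR with 143 and 178 and 0.55 (0.22 to 0.87), AKT1 with 155 and 195 and 0.53 (0.22 to 0.84), AKT2 with 640 and 918 and 0.34 (0.19 to 0.49) and PIK3CA with 161 and 237 and 0.30 (0.01 to 0.60). For TSC1 with 52 and 96 reads, MTOR with 98 and 183 and PIK3R1 with 32 and 65 the values were -0.02, -0.04 and -0.16, each with an interval that included 0. Neighbours in this order had overlapping intervals, so the order between them was not resolved. Over 7950 protein-coding genes with at least 50 reads the median was 0.05 and 54.4% lay above 0, and TSC2 stood at percentile 97.3, RICTOR at 91.9, RPTOR at 84.7, AKT1 at 84.0, AKT2 at 72.8, PIK3CA at 70.4, TSC1 at 43.7, MTOR at 42.3 and PIK3R1 at 32.3 among them.

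With MAnorm's scaling the values were 0.99 for TSC2, 0.55 for AKT1, 0.51 for AKT2 and 0.10 for RICTOR, against -0.14 for PIK3CA, -0.18 for RPTOR, -0.39 for MTOR, -0.54 for PIK3R1 and -0.58 for TSC1, beside a median of -0.21 over the same 7950 genes. Among them TSC2 then stood at percentile 99.4, AKT1 at 94.9 and AKT2 at 93.9, while RICTOR stood at 75.2, PIK3CA at 56.4, RPTOR at 53.2, MTOR at 34.8, PIK3R1 at 24.6 and TSC1 at 22.5, so the place of RPTOR depended on the scaling. The MAnorm intervals left out 0 for TSC2 (0.66 to 1.32), AKT1 (0.24 to 0.87), AKT2 (0.36 to 0.66), MTOR (-0.76 to -0.03) and TSC1 (-1.10 to -0.08), and included it for RICTOR (-0.35 to 0.55), PIK3CA (-0.44 to 0.16), RPTOR (-0.50 to 0.15) and PIK3R1 (-1.20 to 0.09). TSC2, AKT1 and AKT2 therefore lay above 0 beyond counting error under both scalings, although the AKT1 sum is a single window of a peak called with lactate alone. PIK3R1, TSC1 and MTOR had values below 0 under both, but with library sums their intervals included 0. For 2 of these genes the value rested on a window that reached another gene. Without it TSC2 had 21 and 4 reads and a log2 value of 3.25 (1.69 to 5.26), but all 21 lay in windows of peaks called with lactate alone, which sets the direction, and AKT1 was left with its exon window of 6 and 22 reads and a value of -1.01 (-2.60 to 0.33), which was -0.85 when 1 read was added to each IP as for single windows. For RPTOR, leaving out the introns left the window of the last exon, with 7 and 31 reads, at -1.28 (-2.71 to -0.07). The same step moved RICTOR from 0.76 to 2.18 (0.94 to 3.58), on 20 and 8 reads, and PIK3CA from 0.30 to 0.75 (0.35 to 1.16), where most of the lactate reads again lay in windows of peaks called with lactate alone.

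Most of the core genes ranked high by number of peaks but not by peaks per length of gene. Among 12396 protein-coding genes with a peak, with a median of 4 merged peaks, RPTOR stood at percentile 96.8 by its 34 merged peaks, PIK3CA at 89.4, MTOR at 88.5, AKT2 and TSC1 at 85.1, RICTOR at 82.1, PIK3R1 at 59.6, TSC2 at 53.0 and AKT1 at 31.6. Per 100 kb of RefSeq span, RPTOR had 8.07 merged peaks and stood at percentile 31.2, and the median over the 9 genes moved from 85.1 to 37.4. TSC1 with 25.9 and AKT2 with 25.4 merged peaks per 100 kb kept percentiles of 82.5 and 81.8, and PIK3CA with 19.6 stood at 69.7. The median gene had 13.0 per 100 kb.

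Of 67 further genes of the pathway, 61 had a merged peak, with a median of 6 beside 3 over all genes with one. FOXO4, RPS6, LAMTOR3, LAMTOR5, CASTOR1 and DDIT4 had none. With MAnorm 16 of the 61 genes (26.2%) had at least 1 higher peak and 35 (57.4%) at least 1 lower peak, beside 20.4% and 43.8% over the 15016 genes with a peak, and with library sums 29 (47.5%) and 21 (34.4%), beside 37.0% and 20.2%. Genes with more peaks have more chances of a call, and the list had more peaks per gene than the background. Of the 9 core genes, 4 had a higher and 7 a lower peak with MAnorm, and 7 and 2 with library sums. By role, the 8 other lipid kinases and subunits of the PI3K family had 1 gene with a higher and 6 with a lower peak by MAnorm. By library sums they had 4 and 4. The 22 amino acid sensing genes with a peak had 3 and 13 and then 6 and 9. The 8 genes grouped with the mTOR and TSC complexes had 3 and 3 and then 5 and 1, and included RHEB, which is a subunit of neither. RHEB had a higher peak under both scalings. The 9 partners and substrates of AKT with a peak had 5 and 6 and then 8 and 5, the 5 phosphatases 3 and 4 and then 3 and 2, the 6 substrates of mTOR complex 1 with a peak 0 and 1 and then 2 and 0, and the 3 energy and stress sensing genes with a peak 1 and 2 and then 1 and 0.

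Among the largest summed reads on this list were those of FOXO3, a transcription factor that AKT keeps out of the nucleus, with 677 reads with lactate and 1421 with ddH2O and a ratio of 0.866 (0.789 to 0.950) with library sums. ITFG2, a subunit of the KICSTOR complex of amino acid sensing, had 380 and 754 and a ratio of 0.916 (0.808 to 1.04), so both lay at or slightly below the library ratio. The largest lower call was in an intron of PIK3R4, the regulatory subunit of the class III lipid kinase, with 1 read with lactate and 48 with ddH2O and a ratio of 0.0464 (0.000587 to 0.138) with MAnorm and 0.0742 (0.000940 to 0.221) with library sums. Introns of DEPDC5, INPP4B and FOXO3 each had a window with 0 and 13 reads, at least 4.49-fold lower with MAnorm and 2.38-fold lower with library sums. Large higher calls were also in introns, with 13 and 0 reads in FOXO3, 10 and 0 in MAPKAP1 and 9 and 0 in both SEC13 and SGK1, which put lactate at least 4.18-fold, 3.15-fold and 2.81-fold higher with MAnorm. FOXO3 thus held both a window found with lactate alone and one found with ddH2O alone.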

How the data were processed

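RIP-seq libraries of PANC-1 were grouped by their labels (1 lactate IP, 1 lactate input, 1 ddH2O IP, 1 ddH2O input). Per the labels' processing notes the tools included fastp 0.20.1, HISAT2 2.1.0, MACS2 2.2.7.1, bedtools 2.29.2 and HOMER 4.11.1, with GRCh38. The authors deposited a peak list per IP holding, for each peak, the fold or ratio against input, a q-value and a −log10 p-value, and a table of MAnorm read density (a signal) for each IP at merged peaks. The authors' own ratio and P-value of the comparison were not used. Regions are as deposited, and coordinates count from 1. A merged peak took the gene of any called peak sharing 1 base. Reads per window were recovered from the densities by removing MAnorm's line (slope 0.17, intercept -0.20), which was tested on simulated data. Ratios of single windows add 1 read to each IP and those of summed reads add none, and intervals are exact (Clopper-Pearson) for ratios and Wilson for shares, at 95%, covering counting error only. The depth of an input library, or of an IP outside the windows, is unknown. Members, the pathway list and markers were chosen with earlier results of these data known. Named were the densest, the called and the highest-fold peaks of each member, and of the pathway list the 4 genes with the most reads and the 4 largest calls in each direction, or 5 with a tie, some of which are not reported here; role groups were drawn up after the counts. Alternatives covered scaling, fold, q-value, reads, overlap and gene length. The work used scipy 1.17.1, pandas 2.3.3, numpy 2.4.6 and, for drawing, matplotlib 3.10.9 in Python 3.11.15. No per-sample column was left unused.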

Additional observations from a re-analysis of the deposited data

How the results depend on the processing

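A fold over input of at least 4 left 22 core peaks with lactate and 34 with ddH2O, a q-value below 0.05 left 25 and 47, and lists of equal length left 47 with ddH2O. Intron shares and shared peaks stayed within their counting intervals under these alternatives and a 50% overlap. Without RPTOR the ddH2O intron share fell to 50.7%, with an interval of 39.1 to 62.3% that included the 61.2% over protein-coding genes. Of merged peaks, library sums gave 22 higher and 3 lower, centring on the median of peaks in both lists 16 and 8, a fold over 2 without the interval 22 and 46, at least 20 reads in place of the interval 2 and 5 (2 and 4 with both), and a fold over 4 left 10 lower. Summed reads reversed with MAnorm's scaling for PIK3CA (-0.14) and RPTOR (-0.18), with exon and UTR windows for RPTOR (-1.28, its last exon window alone), and, in an alternative added after seeing the data, without windows that reach another gene for AKT1 (-1.01). MTOR and TSC1, whose intervals included 0, also crossed it, MTOR to 0.34 with exon and UTR windows, 0.05 with all windows and 0.10 without windows that reach another gene, and TSC1 to 0.25 with all windows and 0.03 with exon and UTR windows. The number of genes above 0 stayed within 1.5 times of 6 throughout. Library sums gave 29 pathway genes with a higher and 21 with a lower peak in place of 16 and 35, and gene length moved the median percentile from 85.1 to 37.4. The cause of these differences was not tested, apart from fewer peaks entering under stricter limits. No paired analysis was possible because each group holds 1 library. With a median of 5 and 6 reads per window, many differences well over 2-fold were not detectable, as 14 windows over 2-fold higher and 29 over 2-fold lower had intervals that included no change.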
